A study of Mus musculus with 32 samples.

Results

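Translation was compared between 4T1 spheroids in which Dhps was silenced and 4T1 spheroids in which Grin2d was silenced. The measure was the log2 ratio of polysomal to sub-polysomal mRNA of each spheroid pellet, computed for every gene from the deposited counts and scaled so that 0 stands for the typical mRNA of the fractions. The members are the libraries that the labels name ASP shDHPS or ASP shGRIN2D, replicates 1 to 4, with the polysomal and the sub-polysomal library of a replicate paired. These are 16 of the 32 libraries of the study, from 8 of its 16 pellets. 4T1 is a mouse mammary carcinoma cell line of the triple-negative type. Each knockdown was a polyclonal population carrying a lentiviral pLKO shRNA and selected with puromycin, and both populations were grown as spheroids for 5 days in lung-like medium with 700 μM aspartate. Both groups thus share the vector, the selection and the added aspartate, and neither is a control of the other. The scramble shRNA conditions with and without aspartate (ASP shSCR and NoASP shSCR) entered the fit for its estimate of the spread between pellets and are given beside the results where useful.

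Grin2d encodes a subunit of the NMDA receptor, a calcium channel opened by glutamate and aspartate. Dhps encodes deoxyhypusine synthase, the first of the enzymes that turn a lysine of the translation factor eIF5A into hypusine, and Dohh encodes the enzyme that completes this step. Hypusinated eIF5A helps ribosomes past sequences that are slow to join, such as runs of proline, and takes part in termination. mRNAs loaded with several ribosomes sediment as polysomes in a sucrose gradient, whereas those with few ribosomes stay in the sub-polysomal fraction. The study places the receptor upstream of eIF5A hypusination. The comparison asks whether silencing the receptor subunit and silencing the enzyme leave mRNAs with different polysome loading relative to the typical mRNA. A change in loading shared by most mRNAs cannot be seen, because the scaling of the libraries removes it.

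The polysomal libraries of ASP shDHPS held 16552357, 18035876, 17935016 and 18225962 counts, and its sub-polysomal libraries held 21661418, 17673286, 18782362 and 16391556. In ASP shGRIN2D, the polysomal libraries held 18730495, 22075701, 17812530 and 14571913 counts, and the sub-polysomal libraries 21730239, 18111568, 16625307 and 15614647. The log2 CPM values of libraries of the same group correlated across genes with an r of 0.915 to 0.984, and 0 pairs of libraries had identical counts. The study describes the pellets as independent. Epithelial markers were present. In the sub-polysomal libraries of both knockdowns, Epcam lay between 220 and 403 CPM (counts scaled to library depth), Krt8 between 550 and 908 and Cdh1 between 101 and 184. Krt19 was at 40.6 to 54 CPM in ASP shDHPS and 55.7 to 67.8 in ASP shGRIN2D, and Krt14 at 36.8 to 49.2 and 52.7 to 68.8, both without overlap, while Krt5 was not among the genes tested. Ptprc, a leukocyte marker, did not exceed 0.591 CPM and Pecam1, an endothelial marker, did not exceed 0.374. Thy1, which fibroblasts carry, was at 91.5 to 163 CPM, Pdgfra at 8.18 to 13.6 and Cd68 at 6.43 to 12.4. The sub-polysomal libraries held 5.04% to 9.64% of their counts in mitochondrially encoded genes, and the polysomal libraries 0.336% to 1.19%. Among the scramble libraries, the polysomal library of ASP shSCR replicate 1 stood apart with 4.72%, while the remaining polysomal libraries of that condition held 0.692% to 1%. Leaving this pellet out left 1 gene called in the comparison below.

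The silenced genes checked the labels. In bulk libraries such as these, fewer cells with an mRNA and less mRNA per cell cannot be told apart. Dhps (ENSMUSG00000060038; GRCm38, chromosome 8, 85071757 to 85075162) reached 9.98, 10.8, 10.2 and 8.96 CPM in sub-polysomal ASP shDHPS libraries. It reached 43.4, 42.8, 30.4 and 38.1 CPM in those of ASP shGRIN2D, so the groups did not overlap. The means were 10.0 ± 0.785 and 38.7 ± 5.97 (SD, n = 4), and Dhps fell by 1.95 on the log2 scale (standard error 0.16, edgeR adjusted p = 2.3e-08). In the polysomal libraries the means were 10.6 ± 2.15 and 33.0 ± 7.78 (SD, n = 4), with a log2 difference of −1.63 (standard error 0.23, edgeR adjusted p = 0.00944). This adjusted p was above the threshold of 0.05 without ASP shDHPS replicate 1 (0.0578) and without ASP shDHPS replicate 3 (0.0501).

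Grin2d (ENSMUSG00000002771; GRCm38, chromosome 7, 45831883 to 45878378) was measured with few reads. The polysomal libraries of ASP shGRIN2D held 40, 27, 21 and 35 counts of it, and those of ASP shDHPS 91, 68, 108 and 51. The means were 1.63 ± 0.646 and 4.42 ± 1.55 CPM (SD, n = 4). All 4 libraries of ASP shGRIN2D were thus below all 4 of ASP shDHPS, but the log2 difference of 1.46 (standard error 0.33) did not pass the threshold (edgeR adjusted p = 0.127). It did with the replicate number as a block (1.45, edgeR adjusted p = 0.0379). In the sub-polysomal libraries the means were 2.49 ± 0.435 and 4.48 ± 1.61 CPM (SD, n = 4), with overlapping libraries and a log2 difference of 0.84 (standard error 0.30, edgeR adjusted p = 0.253). In ASP shSCR, Dhps averaged 40.2 ± 4.72 and Grin2d 4.56 ± 1.61 CPM in the sub-polysomal libraries (SD, n = 4). The levels of both genes are plotted by library.

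**Figure D1:**
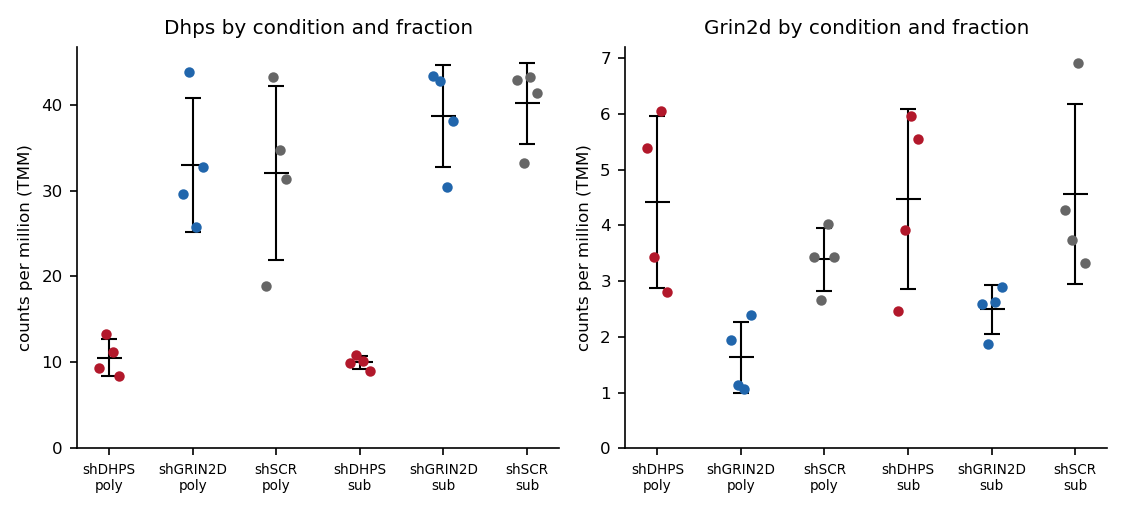
CPM of Dhps (left) and Grin2d (right) on the y axes, by condition and fraction, where poly is polysomal and sub is sub-polysomal. Points are the 4 libraries of a group, and bars are the mean ± SD. Dhps averaged 10.6 and 10.0 CPM in shDHPS against 33.0 and 38.7 in shGRIN2D, and Grin2d averaged 1.63 and 2.49 CPM in shGRIN2D against 4.42 and 4.48 in shDHPS.

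The ratio was tested in 17757 genes, of which 1 passed the threshold, which is 0.00563% (edgeR quasi-likelihood F-test, two-sided, Benjamini-Hochberg adjustment, adjusted p under 0.05). An unadjusted p under 0.05 was reached by 1138 genes (6.41%). Of these, 923 genes (5.2% of all tested) had a lower ratio in ASP shDHPS and 215 genes (1.21%) a higher one. In 531 genes (2.99%) all 4 ASP shDHPS pellets lay below all 4 ASP shGRIN2D pellets, and in 272 genes (1.53%) all 4 lay above. The median log2 difference of all genes was 0.01, a value that the scaling holds near 0. Among the 10857 genes with a mean of at least 50 counts, the log2 difference lay between −0.69 (5th percentile) and 0.46 (95th percentile), with a median standard error of 0.29. DESeq2's Wald test on the same counts called 37 genes, 35 of them lower and 2 higher in ASP shDHPS.

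The gene past the threshold was Zfp946 (ENSMUSG00000071266, chromosome 17 of GRCm38 from 22424222 to 22456689, plus strand), which encodes a zinc finger protein. In ASP shDHPS the polysomal libraries held 44, 79, 41 and 68 counts of Zfp946 and the sub-polysomal libraries 131, 147, 134 and 110. In ASP shGRIN2D the polysomal libraries held 103, 214, 176 and 56 counts and the sub-polysomal libraries 68, 98, 80 and 34. In every ASP shDHPS pellet this mRNA was thus more frequent among sub-polysomal than among polysomal reads, and in every ASP shGRIN2D pellet the reverse held. The log2 ratios were −1.27, −1.07, −1.57 and −0.87 in ASP shDHPS and 0.65, 0.54, 0.71 and 0.75 in ASP shGRIN2D. The ratio of Zfp946 was lower in ASP shDHPS by 1.89 on the log2 scale (standard error 0.31, edgeR adjusted p = 0.0274). The mean ratio of ASP shSCR, 0.12, and that of NoASP shSCR, −0.18, lay between the knockdowns. Taken alone, its polysomal level differed by −1.07 (edgeR adjusted p = 0.239) and its sub-polysomal level by 0.78 (edgeR adjusted p = 0.276), so neither fraction passed the threshold by itself. Leaving out ASP shDHPS replicate 4 kept the call (edgeR adjusted p = 0.048), whereas leaving out ASP shDHPS replicate 1, 2 or 3 or any ASP shGRIN2D replicate gave an adjusted p of 0.1 to 0.204. The call was also lost with the 16 compared libraries alone (0.054), without the pellet term (0.758) and with limma after removing the trend on length and GC content (−1.28, adjusted p 0.181). Zfp genes form a large family with near copies, and reads that fit several members could have been divided between them.

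The other genes were chosen by the smallest p among those without overlap between pellets, and none passed edgeR's threshold, so they are given as values. By DESeq2's Wald test Rb1cc1, Ccdc66, Slfn9, Ift74 and Rps26 passed (adjusted p 3.15e-05 to 0.0162). Rb1cc1 (ENSMUSG00000025907), the scaffold of the kinase complex that starts autophagy, had log2 ratios of −0.31, −0.40, −0.56 and −0.57 in ASP shDHPS and 0.74, 0.65, 1.23 and 0.50 in ASP shGRIN2D. Its ASP shSCR mean, 0.76, was close to that of ASP shGRIN2D, 0.78. This made a log2 difference of −1.24 with a standard error of 0.23 (edgeR adjusted p = 0.0906). It lay in the polysomal libraries, where the level of Rb1cc1 was lower in ASP shDHPS by 1.34 on the log2 scale (edgeR adjusted p = 0.0447). The sub-polysomal level differed by −0.07. Rb1cc1 passed the ratio threshold when genes with few counts were filtered first (edgeR adjusted p = 0.0384 and 0.0453 with the filters tried) and by DESeq2's Wald test (−1.21, adjusted p = 3.15e-05). Its difference was −0.65 (adjusted p 0.663) after the trend on length and GC content was taken out with limma, and leaving out 1 pellet gave an edgeR adjusted p of 0.104 to 0.691.

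Ccdc66, a protein of the centrosome and cilium, had a log2 difference of −1.54 (standard error 0.31, edgeR adjusted p = 0.172). Ift74, a subunit of the intraflagellar transport machinery that builds cilia, had −1.59 (standard error 0.34, edgeR adjusted p = 0.242). Slfn9, a member of the Schlafen family, had −1.23 (standard error 0.26, edgeR adjusted p = 0.242). The closest pellets of Ccdc66 were at −0.09 in ASP shDHPS and 0.34 in ASP shGRIN2D. The ASP shSCR means of these genes, 0.45 for Ccdc66, 0.28 for Ift74 and 0.73 for Slfn9, lay above every ASP shDHPS pellet.

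The genes with a higher ratio in ASP shDHPS had smaller differences. Rps26, a protein of the small ribosomal subunit, had log2 ratios of −0.54, −0.54, −0.46 and −0.07 in ASP shDHPS and −1.63, −1.01, −1.18 and −1.32 in ASP shGRIN2D. Rps26 thus differed by 0.88 with a standard error of 0.25 (edgeR adjusted p = 0.352), and the ASP shSCR mean of Rps26, −1.48, lay with the ASP shGRIN2D pellets. Rps26 has processed copies in the genome that can share its reads. Ndufa13, a subunit of respiratory complex I, had log2 ratios of 0.57, 0.45, 0.81 and 0.29 in ASP shDHPS and −0.90, −0.04, −0.21 and −0.44 in ASP shGRIN2D, a difference of 0.92 (edgeR adjusted p = 0.44). Tmem51, a transmembrane protein, differed by 1.08 (edgeR adjusted p = 0.352). Hoxa3, a homeobox transcription factor, differed by 0.98 (edgeR adjusted p = 0.352), and B4galt7, which adds a galactose to the linker of glycosaminoglycan chains, by 0.92 (edgeR adjusted p = 0.361). None of the 10 genes had overlapping pellets, since the choice required it.

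**Figure D2:**
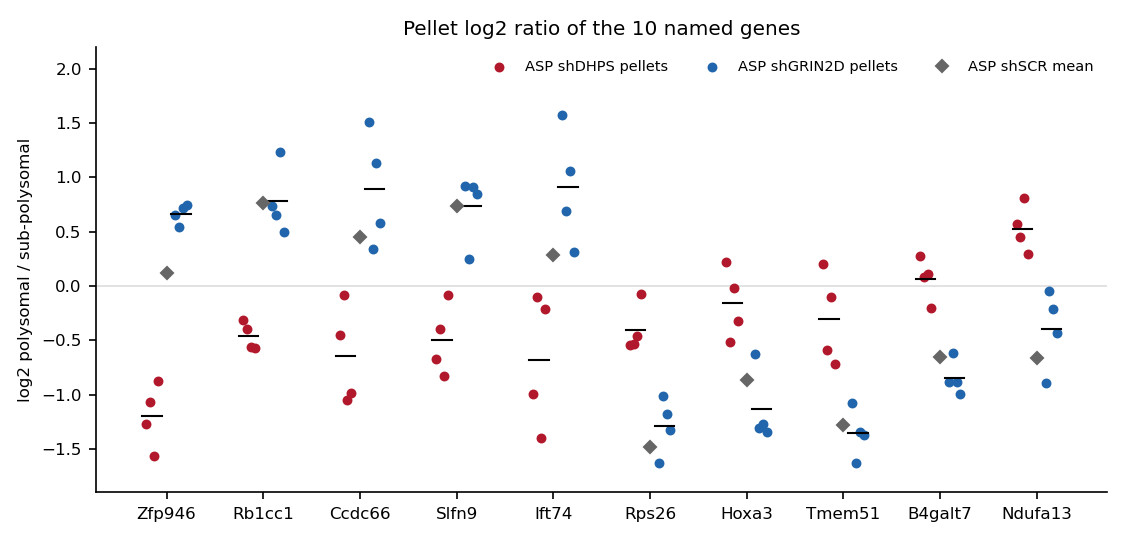
Log2 ratio of polysomal to sub-polysomal mRNA (y axis) for the 10 named genes (x axis). Points are the pellets of ASP shDHPS and ASP shGRIN2D (n = 4 each), horizontal bars their means and diamonds the ASP shSCR mean. Zfp946 shows the widest gap, from −0.87 for the highest ASP shDHPS pellet to 0.54 for the lowest ASP shGRIN2D pellet.

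These genes also differed in sequence, and the starts of their coding parts are shown because base composition followed the ratio across genes. In the stretches that follow, coding bases 1 to 90 of the GRCm38 transcript are given from 5′ to 3′, with capitals at each G or C that ends a codon. The lower genes come first (Zfp946, Rb1cc1 and Ift74), then the higher ones (B4galt7, Tmem51 and Ndufa13), picked after their values were seen.
Zfp946: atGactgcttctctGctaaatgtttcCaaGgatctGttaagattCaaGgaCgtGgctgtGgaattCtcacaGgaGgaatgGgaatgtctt
Rb1cc1: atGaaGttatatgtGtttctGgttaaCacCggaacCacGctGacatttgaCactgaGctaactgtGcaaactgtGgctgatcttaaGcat
Ift74: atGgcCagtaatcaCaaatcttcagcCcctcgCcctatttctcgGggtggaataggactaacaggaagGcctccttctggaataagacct
B4galt7: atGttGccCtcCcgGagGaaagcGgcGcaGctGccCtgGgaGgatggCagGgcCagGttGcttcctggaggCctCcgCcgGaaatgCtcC
Tmem51: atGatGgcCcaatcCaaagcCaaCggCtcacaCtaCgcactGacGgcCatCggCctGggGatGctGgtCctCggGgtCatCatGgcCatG
Ndufa13: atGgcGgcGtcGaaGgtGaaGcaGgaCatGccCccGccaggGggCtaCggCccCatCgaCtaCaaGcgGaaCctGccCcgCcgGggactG
G or C ended 14 of the 30 codons shown for Zfp946, 14 for Rb1cc1 and 7 for Ift74. The count was 24 for B4galt7, 26 for Tmem51 and 28 for Ndufa13. Over the whole coding part, G or C ended 30.98% of the codons of Zfp946, 35.9% of Rb1cc1 and 38.3% of Ift74, against 73.4% for B4galt7, 72.3% for Tmem51 and 85.4% for Ndufa13. Ccdc66 (41.4%), Slfn9 (48.8%), Rps26 (60.9%) and Hoxa3 (69.5%) lay between them.

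Across the 10803 genes at 50 or more mean counts that matched a transcript, the log2 difference of the ratio was higher the more G and C the transcript held (Spearman's rho 0.648 across genes, a description, since genes share their libraries). The rho was 0.602 with the GC share at the ends of codons and −0.354 with transcript length. In the lowest quintile of GC content (31.9% to 44.6%) the median log2 difference was −0.40, and 89.1% of its 2160 genes lay below 0. The medians of the next quintiles were −0.16, 0.04 and 0.19, and that of the highest (56.1% to 72.9%) was 0.22, where 12.2% of the genes lay below 0. All 4 ASP shDHPS pellets lay below all 4 of ASP shGRIN2D in 267 genes of the lowest quintile (12.4%) and in 1 gene of the highest (0.0463%), against 2.99% of all genes and 3.68% of those with a mean of at least 50 counts. Pellets of ASP shDHPS lay above in 3 genes of the lowest quintile (0.139%) and in 70 of the highest (3.24%), against 1.53% of all genes. Among the 10857 genes with a mean of at least 50 counts, they lay above in 177. Of the 35 genes that the Wald test called lower in ASP shDHPS, 33 belonged to the lowest quintile. The polysomal level had a median difference of −0.24 in the lowest and 0.18 in the highest quintile, and the sub-polysomal level 0.11 and −0.05.

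The pattern was uneven between pellets. In the lowest GC quintile, the median log2 ratio was −0.45, 0.11, −0.30 and 0.17 in the ASP shDHPS pellets and 0.20, 0.32, 0.63 and 0.19 in the ASP shGRIN2D pellets. The groups did not overlap, but ASP shDHPS replicates 2 and 4 came close to the lowest ASP shGRIN2D pellets, whereas replicates 1 and 3 stood apart. ASP shSCR had 0.25, 0.69, 0.32 and 0.43, and NoASP shSCR 0.24, 0.30, 0.35 and 0.43. In the highest quintile the ASP shDHPS pellets had 0.37, −0.10, 0.05 and −0.26 and the ASP shGRIN2D pellets −0.02, −0.34, −0.33 and −0.11, which overlapped. The slope of the log2 ratio on GC content, per 10 percentage points, was 0.467, −0.138, 0.192 and −0.24 in ASP shDHPS and −0.101, −0.376, −0.581 and −0.146 in ASP shGRIN2D. The means of 0.0703 ± 0.322 and −0.301 ± 0.222 (SD, n = 4) differed by 0.371, which did not pass the threshold (exact permutation test, two-sided, p = 0.143, adjusted over 4 slope tests 0.267, smallest possible p = 0.0286). The slope on each doubling of transcript length differed by −0.132 (exact permutation p = 0.0857, adjusted 0.267). With GC content and length fitted together, the GC slope differed by 0.341 (exact permutation p = 0.2, adjusted 0.267). The length slope then differed by −0.083 (exact permutation p = 0.486, adjusted 0.486).

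**Figure D3:**
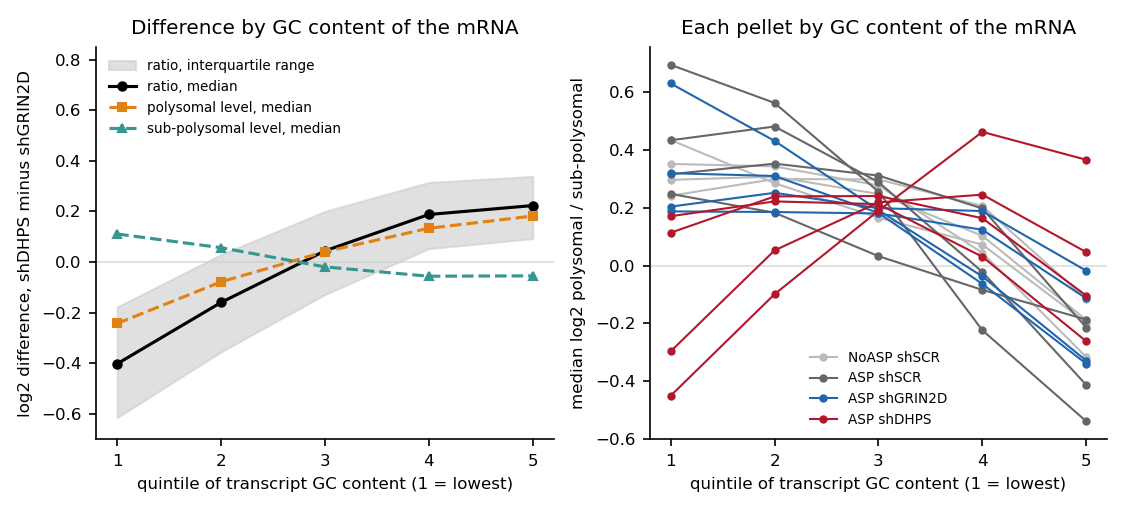
Left, log2 difference between ASP shDHPS and ASP shGRIN2D (y axis) by quintile of transcript GC content (x axis), with the median and interquartile range of the ratio and the medians of the polysomal and sub-polysomal levels. Right, median log2 ratio of polysomal to sub-polysomal mRNA of each pellet (y axis) over the same quintiles, in all 4 conditions. The median difference rises from −0.40 to 0.22, and ASP shDHPS replicates 1 and 3 (−0.45 and −0.30 in the lowest quintile) lie apart from the other pellets.

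Gene lists are described by their counts and medians, beside those of all genes. The lists were chosen with earlier results of these data known, so their shares are a description and not independent evidence. The Zfp zinc finger genes, mostly transcription factors that bind DNA, were the largest list. Of 349 measured, 1 was called, 229 had a log2 difference below 0 and the median was −0.26, against 0.01 for all genes. In 39 of them (11.2%) all ASP shDHPS pellets lay below those of ASP shGRIN2D, against 2.99% of all genes, and in 4 they lay above, against 1.53% of all genes. Zfp612 had a log2 difference of −1.60 (edgeR adjusted p = 0.375), while Zfp526 had 0.79 and Zfp36, which binds AU-rich mRNAs and leads to their decay, had 0.70. The list is low in GC (median 44.1% against 50.2%). Its members of the lowest GC quintile (115) had a median of −0.53, and the other genes of that quintile had −0.40. Its 43 members of the highest quintile had a median of 0.24, close to the 0.22 of the other genes there. Once the pellet ratios were freed of their trend on length and GC content, the median of the list was −0.05.

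Proteins of the centrosome, cilium and kinetochore, most of them long coiled coils, lay lowest of the lists with at least 10 members. Of 24, none was called, 22 were below 0 and 13 had a lower ratio at an unadjusted p under 0.05 (5.2% of all genes). Their median was −0.66, and in 7 (29.2%, against 2.99% of all genes) the ASP shDHPS pellets lay below without overlap. Since this list too was chosen with earlier results known, that share is not independent evidence. The list also holds proteins of other places, such as the golgins Golga4 and Golgb1 and the kinases Rock1 and Rock2. Rock1, a kinase that drives actomyosin contraction, had log2 ratios of −0.25, 0.15, −0.64 and −0.70 in ASP shDHPS and 1.31, 0.27, 0.79 and 0.53 in ASP shGRIN2D. Its difference was −1.09 (standard error 0.26, edgeR adjusted p = 0.286). Cep290, a protein of the ciliary gate, differed by −1.32 (edgeR adjusted p = 0.483), whereas Pcnt, a scaffold of the centrosome, differed by 0.21 and Cep250, which links centrioles, by 0.22. The mRNAs of this list are long (median 7634 nucleotides against 2481) and low in GC (44.7%). Its 11 members in the lowest GC quintile had a median of −0.78 and its 5 members in the next −0.77, against −0.40 and −0.16 for the other genes of those quintiles. With the trend on length and GC content removed, the median of the list was −0.27.

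The ribosomal protein genes had a median difference above 0 in every GC quintile. Of the 79 cytosolic ribosomal proteins, none was called, but 78 had a log2 difference above 0 and the median was 0.37. In 9 of them the ASP shDHPS pellets lay above those of ASP shGRIN2D and in 0 below, against 1.53% and 2.99% of all genes. Rps26 was the highest and Rpl26, of the large subunit, came next, with log2 ratios of −0.08, −0.31, −0.25 and 0.31 against −0.80, −0.59, −0.75 and −0.78 (difference 0.65, edgeR adjusted p = 0.603). Rpl4, at −0.06, was the member below 0. Their medians per pellet were −0.96, −0.76, −0.62 and −0.23 in ASP shDHPS and between −1.31 and −0.76 in ASP shGRIN2D. These mRNAs thus lay below the typical mRNA in all 8 pellets, and the knockdowns overlapped. The 16 members in the second GC quintile had a median of 0.34 and the 25 in the fourth 0.41, while the other genes of those quintiles had −0.16 and 0.19. These mRNAs are short (median 838 nucleotides), and with the trend on length and GC content removed their median was 0.14.

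Genes of the mitochondrion are given by where they are encoded. Of 82 nuclear-encoded respiratory chain subunits, 75 were above 0, with a median of 0.24. In 5 of them the ASP shDHPS pellets lay above, against 1.53% of all genes, and besides Ndufa13 the largest difference was that of Ndufb2, of complex I (0.72, edgeR adjusted p = 0.717). Ndufs1, of the same complex, had −0.30, and Sdha, the catalytic subunit of complex II, had −0.16. The median was 0.01 without ASP shGRIN2D replicate 1, whose own list median was −0.89 against −0.31 to 0.24 in the other ASP shGRIN2D pellets. It was 0.37 without ASP shDHPS replicate 1, 0.36 without ASP shGRIN2D replicate 2, 0.39 without ASP shGRIN2D replicate 3 and 0.03 with the trend on length and GC content removed. Of 78 mitochondrial ribosomal proteins, 64 were above 0 (median 0.17), with Mrps34 and Mrpl10 at 0.61 and 0.60 and Mrps31 at −0.59. Their median was 0.02 without ASP shGRIN2D replicate 1, and 0.27, 0.28 and 0.29 without ASP shDHPS replicate 1 and ASP shGRIN2D replicates 2 and 3. It was 0.06 with the trend on length and GC content removed. Of the 13 mRNAs encoded in mitochondrial DNA, which are translated on mitochondrial ribosomes inside the organelle, 12 were below 0 (median −0.20). This median turned to 0.09 without ASP shDHPS replicate 1 and to 0.17 with the trend on length and GC content removed, and it was −0.46 without ASP shDHPS replicate 4 and −0.43 without ASP shGRIN2D replicate 1. It was −0.05 without ASP shGRIN2D replicate 2. Their median log2 ratio lay between −4.53 and −3.15 in the pellets of both knockdowns, far below the typical mRNA. None of the genes of these lists was called.

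**Figure D4:**
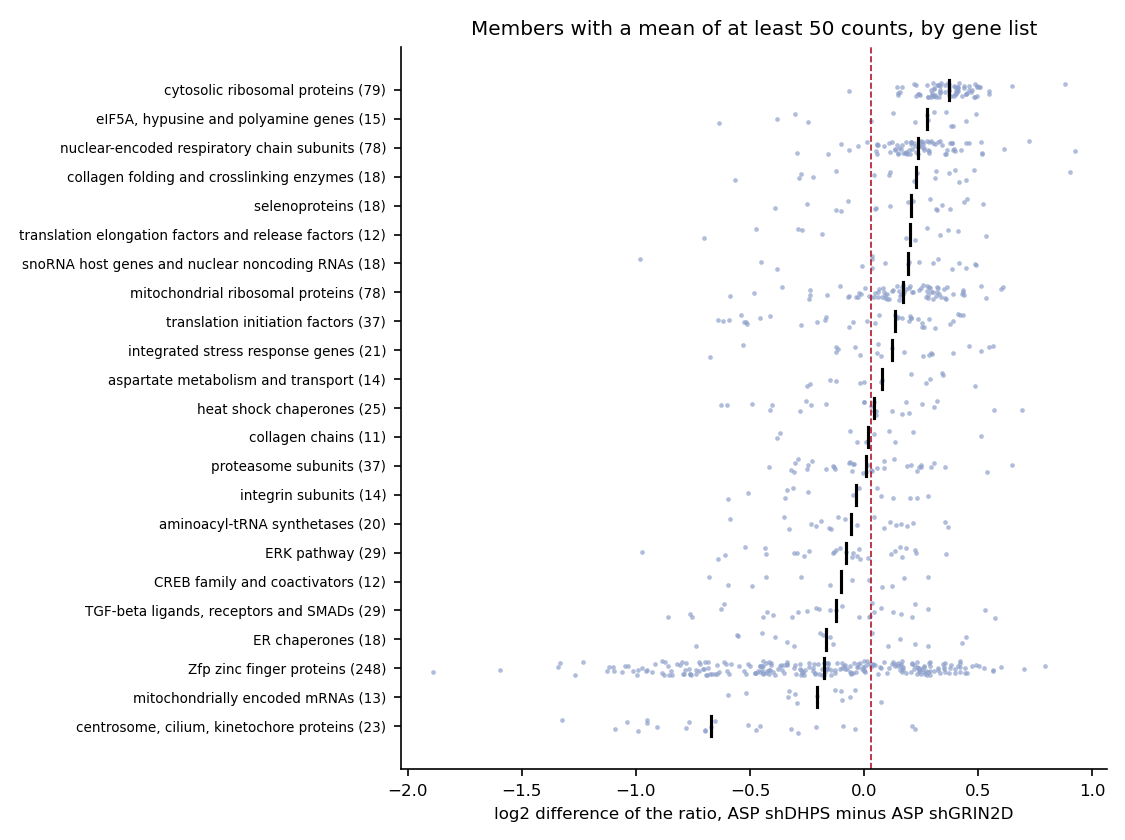
Log2 difference of the polysomal to sub-polysomal ratio, ASP shDHPS minus ASP shGRIN2D (x axis), for members with a mean of at least 50 counts of the gene lists with at least 10 such members (y axis, number in brackets). Points are genes, black bars list medians and the dashed line the median of all genes at that count (0.03). Medians run from −0.67 for the centrosome, cilium and kinetochore proteins to 0.37 for the cytosolic ribosomal proteins.

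Of the genes around eIF5A, none had a called ratio. Eif5a, the major eIF5A gene, had log2 ratios of −0.10, 0.24, 0.41 and −0.39 in ASP shDHPS and −0.92, 0.05, −0.01 and −0.40 in ASP shGRIN2D, which differ by 0.36 with a standard error of 0.32 (edgeR adjusted p = 0.963). Eif5a2, its minor paralog, had −0.63 (standard error 0.46, edgeR adjusted p = 0.94). Dohh had 0.22 (standard error 0.25, edgeR adjusted p = 0.971), and the remaining Dhps mRNA had 0.31 (standard error 0.29, edgeR adjusted p = 0.965). The Grin2d mRNA had 0.65 (standard error 0.42, edgeR adjusted p = 0.925). Leaving out 1 pellet moved these differences, between −1.09 and −0.24 for Eif5a2, 0.16 and 0.50 for Eif5a, 0.29 and 0.97 for Grin2d, 0.12 and 0.33 for Dohh and 0.20 and 0.41 for Dhps. The lowest value of Eif5a2 was without ASP shDHPS replicate 2 and the highest without replicate 1, and Eif5a, Dohh and Dhps were lowest without ASP shGRIN2D replicate 1. Grin2d was lowest without ASP shDHPS replicate 1. The pellets of all these genes overlapped between the knockdowns, which does not show that their loading was alike. Over the 15 genes of eIF5A, hypusine and polyamine metabolism the median was 0.28, and 0.10 with the trend on length and GC content removed. With that trend removed, Eif5a had 0.12, Dhps 0.04 and Eif5a2 −0.14, and Dohh turned to −0.03. Oaz1, the antizyme that marks ornithine decarboxylase for degradation, differed by 0.49, without overlap of the pellets (edgeR adjusted p = 0.821), and Amd1, which makes the aminopropyl donor of polyamine synthesis, by −0.38.

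The other factors of translation were divided. The 37 initiation factors had a median of 0.14, with 22 above 0, and 3 were lower in ASP shDHPS at an unadjusted p under 0.05, as were 5.2% of all genes. The median was 0.02 without ASP shGRIN2D replicate 2 and 0.03 without ASP shDHPS replicate 1 or 4 or with the trend on length and GC content removed. Among them Eif3a, the largest subunit of eIF3, had log2 ratios of −0.38, −0.21, −0.26 and −0.05 in ASP shDHPS and 0.58, −0.02, 0.47 and 0.55 in ASP shGRIN2D (difference −0.62, edgeR adjusted p = 0.676). Eif1a, which helps to find the start codon, had −0.64, while Eif1 had 0.43 and Eif4h 0.42. Of 12 elongation and release factors, 7 were above 0 (median 0.20, 0.01 without ASP shDHPS replicate 4 and 0.11 without ASP shGRIN2D replicate 3), from −0.70 for Abce1, which recycles ribosomes, to 0.54 for Eef2, which moves the ribosome along the mRNA. The 20 aminoacyl-tRNA synthetases had a median of −0.06, with Dars, the aspartyl-tRNA synthetase, at −0.59 (edgeR adjusted p = 0.685). The 21 genes of the integrated stress response had a median of 0.12 (0.23 without ASP shDHPS replicate 4 and 0.19 without ASP shGRIN2D replicate 2). That median was 0.06 with the trend on length and GC content removed. Among these genes, Atf5 had 0.55 and Slc7a11, the cystine transporter, −0.67.

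Genes with runs of proline codons were compared, since eIF5A is known for such sequences. The study reports reduced hypusination after silencing of either gene. A comparison of the knockdowns with each other therefore cannot tell how such genes depend on eIF5A. The median log2 difference was 0.02 in 7748 genes with no run of 3 or more CCN codons, 0.03 in 1649 genes with 1 run and 0.04 in 962 genes with 2 or more. The share of genes in which all ASP shDHPS pellets lay below was 3.7%, 4.06% and 3.64% in the same order, against 3.68% of all genes with a mean of at least 50 counts. The share in which they lay above was 1.55%, 1.52% and 1.35%, against 1.53% of all genes. Among the 10857 genes with a mean of at least 50 counts, they lay above in 177. The median GC content of these classes rose from 49.9% through 52.0% to 53.6%, and its part in the comparison was not tested.

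The study turned from these libraries to TGF-β signaling. Of 32 ligands, receptors and SMADs none was called, 20 were below 0 and the median was −0.14. The median was −0.23 without ASP shGRIN2D replicate 4, −0.21 without ASP shDHPS replicate 2 and −0.08 without ASP shDHPS replicate 4, with the other pellets left out in turn between these, and −0.07 with the trend on length and GC content removed. In 3 the ASP shDHPS pellets lay below and in 0 above (9.38% below, against 2.99% of all genes), and 5 were lower and 0 higher at an unadjusted p under 0.05 (5.2% and 1.21% of all genes). Bmpr2, a BMP receptor, differed by −0.76 (standard error 0.25, edgeR adjusted p = 0.45) and Inhba, an activin subunit, by −0.86 (edgeR adjusted p = 0.572). Acvr1b, an activin receptor, differed by 0.53 and Smad6, an inhibitory SMAD, by 0.58. Tgfb1 itself had 0.28 (standard error 0.32, edgeR adjusted p = 0.971) and Smad3 0.03 (standard error 0.25, edgeR adjusted p = 1). With the trend on length and GC content removed, Tgfb1 had 0.08 and Smad3 turned to −0.05. Smad3 also turned below 0 without ASP shDHPS replicate 1 (−0.04) and without ASP shGRIN2D replicate 3 or 4 (−0.05). The 222 genes of the 5 TGF-β gene sets that the study chose on these libraries had a median of −0.09, with 12 lower (5.41%) and 2 higher without overlap of the pellets, against 2.99% and 1.53% of all genes. Their direction is not independent evidence, since these libraries served to select them. Id3, a transcription inhibitor that BMP signaling induces, differed by 0.75 and Arid4b, a chromatin protein, by −1.19 (edgeR adjusted p = 0.286).

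Of 26 collagen chains, 13 were above and 13 below 0 (median −0.01), and none was called. Col1a1 was almost silent in these libraries, with a mean of 7.06 counts, and its difference of −0.35 had a standard error of 1.38. Col6a1 differed by 0.14 (standard error 0.37, edgeR adjusted p = 0.991), Col6a2 by 0.51 and Col5a1 by 0.22. Col6a1 turned to −0.15 without ASP shGRIN2D replicate 2 and to −0.05 without ASP shDHPS replicate 4. It was 0.44 without ASP shGRIN2D replicate 4 and −0.04 with the trend on length and GC content removed. The 21 enzymes that fold and crosslink collagen had a median of 0.11, which ran from 0.08 without ASP shDHPS replicate 1 to 0.22 without ASP shGRIN2D replicate 1 and turned to −0.02 with the trend on length and GC content removed. Of 19 integrin subunits, 12 were below 0 (median −0.22). That median was −0.11 without ASP shDHPS replicate 2 or ASP shGRIN2D replicate 1, and −0.03 when a gene needed at least 10 counts in every library. Itga1 and Itga8, α subunits that bind matrix, were the lowest of those with at least 50 counts, at −0.60 and −0.51, with all ASP shDHPS pellets below those of ASP shGRIN2D (edgeR adjusted p = 0.615 and 0.717).

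Of the 30 genes of the ERK pathway, 21 were below 0, and the median was −0.09. It was −0.16 without ASP shGRIN2D replicate 4 and −0.05 with the trend on length and GC content removed. Braf, a kinase of this pathway, had log2 ratios of −1.82, −1.44, −1.57 and −1.26 in ASP shDHPS and −0.30, −0.58, −0.87 and −0.48 in ASP shGRIN2D, which differ by −0.97 with a standard error of 0.28 (edgeR adjusted p = 0.352). The 12 CREB family genes and coactivators had a median of −0.10 (−0.25 without ASP shDHPS replicate 1, −0.20 without ASP shGRIN2D replicate 2 and −0.07 without ASP shDHPS replicate 3). Creb1 had −0.60 (standard error 0.30, edgeR adjusted p = 0.813). Its difference ran from −0.76 without ASP shGRIN2D replicate 1 to −0.31 without ASP shDHPS replicate 1. With the trend on length and GC content removed, Creb1 had −0.10. The 18 chaperones of the endoplasmic reticulum had a median of −0.17 (−0.25 without ASP shDHPS replicate 1 and −0.09 with the trend on length and GC content removed). They ran from −0.74 for Dnajc3 to 0.45 for P4hb. In 2 of them (11.1%, against 2.99% of all genes) the ASP shDHPS pellets lay below. The 26 heat shock chaperones had 0.04 and the 37 proteasome subunits 0.01. The 16 genes of aspartate metabolism and transport had 0.04, the 21 selenoproteins 0.22 and the 10 iron-regulated genes 0.20. Fth1 and Ftl1, the ferritin chains, differed by 0.53 and 0.62 with standard errors of 0.74 and 0.72. The 23 snoRNA host genes and nuclear noncoding RNAs had a median of 0.20, with Malat1, a nuclear RNA, at −0.98. Without ASP shGRIN2D replicate 1 the median of the selenoproteins was 0.02 and that of the snoRNA hosts 0.01 (up to 0.33 without ASP shDHPS replicate 1), and without ASP shGRIN2D replicate 4 that of the iron-regulated genes was 0.35 (0.13 without ASP shGRIN2D replicate 3). The 57 replication-dependent histone genes had a median of 0.08, and 7 of them reached a mean of 50 counts. Leaving out 1 pellet turned the sign of the median of the heat shock chaperones, the proteasome subunits, the aspartate genes and the histones, as it did for the collagen chains and the aminoacyl-tRNA synthetases. Of the 3 NMDA receptor subunits measured, 1 reached that count, which was Grin2d.

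Levels were also compared within each fraction. Those fits differ in form from the fit of the ratio, so the counts of genes passing cannot be compared between them. In the polysomal libraries 15 genes passed the threshold (0.0845%), 11 of them lower (0.0619%) and 4 higher (0.0225%) in ASP shDHPS, and in the sub-polysomal libraries 129 genes did (0.726%), 75 lower (0.422%) and 54 higher (0.304%; edgeR, adjusted p under 0.05). At an unadjusted p under 0.05 the shares were 9.4% and 10.7%. After adjustment, 12 genes passed in both fractions, and Dhps was among them. The polysomal count was 2, 2, 3 and 6 without ASP shDHPS replicates 1 to 4, and 3 without ASP shGRIN2D replicate 1 or 3. The sub-polysomal count was 80, 81 and 82 without ASP shDHPS replicates 1, 3 and 4, and 80 without ASP shGRIN2D replicate 3. With the replicate number as a block the counts were 103 and 291.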

How the data were processed

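The authors made mRNA libraries with a stranded kit from polysomal (more than 3 ribosomes) and sub-polysomal fractions of cycloheximide-treated spheroids, and deposited raw counts per gene. The submitters' processing notes name Trim Galore 0.6.6, FastQC 0.11.9, STAR 2.6.1, Salmon 1.4.0 and DESeq2 1.34.0, with GRCm39. Deposited tables of the authors' own fold differences and enrichment scores were not used. The deposited gene set collection gave names of members.

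The counts of all 32 libraries were scaled by TMM and fitted with edgeR 4.0.16 in R 4.3.3 (quasi-likelihood F-test, a term per pellet and a polysomal to sub-polysomal ratio per condition), with Benjamini-Hochberg adjustment over 17757 genes. Levels were fitted within each fraction. Ratios per pellet used a prior count of 2. limma 3.58.1, DESeq2 1.42.0 and mgcv 1.9.3 served as alternatives, and the fits were tested on simulated data. Lengths, GC content and coordinates came from a GRCm38 annotation, matched for 97.5% of genes, so they may differ from GRCm39 in detail. Named genes were fixed mechanism genes, the 5 genes of each direction with the smallest p, at least 50 mean counts and no overlap of pellets, and the 2 lowest and 2 highest members of each list at that count, passing over pseudogenes. The members and lists were chosen with earlier results of these data known. The pellets are independent spheroid cultures of 1 polyclonal line per shRNA, so p-values measure the spread between pellets.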

Additional observations from a re-analysis of the deposited data

Results flagged for a closer look

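Of 40 groups of 4 pellets examined among the named genes, 2 held a pellet far from the other 3, and about 2 would by chance, since the limit used marks about 1 group in 20. For Slfn9, the log2 ratio of ASP shGRIN2D replicate 2 was 0.2459, while the other ASP shGRIN2D pellets lay between 0.8508 and 0.9237. For Hoxa3, that of ASP shGRIN2D replicate 1 was −0.6243, while the others lay between −1.341 and −1.27. In both genes this pellet was the ASP shGRIN2D pellet closest to ASP shDHPS.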

How the results depend on the processing

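Against 1 gene called in the ratio, filters on low counts gave 2 (at least 10 counts in every library) and 2 (filterByExpr), and DESeq2's Wald test gave 37, with 5508 genes left without an adjusted p. The count was 0 without the pellet term (1114 genes at an unadjusted p under 0.05), 0 with the 16 libraries of the compared conditions alone (1161 genes) and 0 with limma after removing the trend on length and GC content (888 genes). The cause of these changes was not tested. Leaving out 1 pellet at a time gave 0 to 1. For the polysomal level (15 genes) the Wald test gave 204 and leaving out 1 pellet 2 to 14, and for the sub-polysomal level (129 genes) 270 and 80 to 137. The polysomal difference of Dhps ran from −1.745 to −1.472 without 1 pellet, with adjusted p from 0.0116 to 0.0578. The polysomal difference of Grin2d was 1.45 by the Wald test (adjusted p 0.00589).

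Over 19 alternatives Zfp946 stayed below 0 (−2.001 to −1.283, adjusted p 3.15e-05 to 0.758) and passed the threshold in 9. After removing the trend on length and GC content, the signs of Dohh (−0.02669), Smad3 (−0.04901) and Col6a1 (−0.03544) turned. Leaving out 1 pellet gave −0.05383 to 0.1663 for Smad3, −0.7849 to 0.1393 for Col1a1 and −0.1479 to 0.4401 for Col6a1. The GC slope difference, with alternatives chosen after seeing the data, was 0.302 over all genes and 0.239 to 0.475 without 1 pellet. Without 1 pellet the exact permutation p was 0.0571 to 0.257, so none passed 0.05.

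With the replicate number as a block, 1 gene was called in the ratio (1437 at an unadjusted p under 0.05), 103 in the polysomal and 291 in the sub-polysomal level, and the polysomal difference of Grin2d was 1.449 (adjusted p 0.0379). Deviations of same-numbered pellets correlated with an r of 0.645, 0.408, 0.0994 and 0.0784 across genes, above the median r with other numbers in every pellet (−0.408, −0.36, 0.0123 and −0.0444), but 2 of them were not over 0.1, and 1 of the 4 ASP shDHPS pellets correlated best with its own number. The labels give only the number, so whether same-numbered pellets were handled together is not known. The main fits left the number out, and the counts of the level comparisons depend on that choice.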

Other observations

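The 12 genes whose level passed the threshold in both fractions, named after their values were seen, were led by Ly6d, a surface protein of the Ly6 family. It had 0.291 ± 0.118 CPM in the polysomal libraries of ASP shDHPS and 8.49 ± 3.66 in those of ASP shGRIN2D (SD, n = 4). The log2 difference was −4.83 (edgeR adjusted p = 0.000282). In the sub-polysomal libraries the difference was −5.18 (edgeR adjusted p = 2.98e-08). Ly6c1, of the same family, was lower in ASP shDHPS by 1.79 in polysomal and 2.32 in sub-polysomal libraries. Gper1, a membrane estrogen receptor, was lower by 1.78 and 1.47, and Tns1, which links integrins to actin, by 1.82 and 1.47. Gas7, Odf3l1 and Extl1 were lower as well, beside Dhps. Prnd, a relative of the prion protein, was higher in ASP shDHPS by 1.79 and 1.65, and Cyb561a3 by 1.33 and 1.11. Med9, a Mediator subunit, was higher by 1.42 and 0.70, and Ppt1, a lysosomal thioesterase, by 0.85 and 1.07. Each shRNA was carried by 1 polyclonal line, so an effect of the knockdown and a difference between the lines cannot be told apart. Apart from Dhps, which knockdown departed from ASP shSCR was not examined. The ratio differences of these 12 genes lay between −0.35 and 0.69, and none was called.

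Of the 50 Hallmark gene sets, given as a description, the lowest median ratio differences were those of UV response down (−0.20, 127 genes), angiogenesis (−0.14, 24 genes) and protein secretion (−0.13, 93 genes). The highest were those of MYC targets V2 (0.15, 58 genes), the p53 pathway (0.15, 190 genes) and oxidative phosphorylation (0.15, 199 genes), against 0.01 for all genes. In the order named, median GC content was 48.7%, 49.0% and 46.4%, then 53.3%, 53.0% and 49.9%, against 50.2% for all genes. Median transcript length was 4663, 3952 and 3050 nucleotides, then 2347, 2649 and 1557, against 2481. The part of GC content and length in this ranking was not tested.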
